A study of Mus musculus with 23 samples.

Results

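The genes described are the immunoglobulin transcripts of mouse lung cultures. They were chosen by their counts: of the 395 rows whose symbols begin as heavy, kappa or lambda immunoglobulin genes, 170 reached a total of at least 100 counts over the 23 libraries, out of 41073 genes read. The 170 comprised 79 heavy, 74 kappa and 3 lambda variable segments, 11 constant regions and 3 joining segments. No diversity segment reached the minimum. Another 225 rows fell short of it, and 112 of those held no count at all. Just inside the minimum lay Igkv14-130 with 104 counts, Igkj4 with 106 and Igkj5 with 107, and just outside it Igkj3 with 99, Igkj2 with 97 and Ighv1-49 with 92.

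RNA was sequenced in bulk from lung epithelial cells of C57BL/6 wild type mice, selected for the epithelial surface protein EpCAM. They were cultured in transwells, porous inserts that let the upper face of the cell layer meet air (an air-liquid interface, ALI). The groups were freshly isolated cells (3 libraries), untreated cells on the day of airlift, when the medium is taken off the upper face (6), cultures at day 4 left untreated, called controls below (7), and cultures at day 4 given NTHi, non-typeable Haemophilus influenzae, which lives in airways (7). Each of 3 experiments, A, B and C, held all 4 groups, with 1 fresh library each. Libraries held 32323375 to 39081663 counts. Whether replicates came from separate animals or cultures is not in the labels, and the p-values rest on library-to-library spread that may be technical. Epcam itself averaged 237 CPM in fresh cells (counts relative to the library's total after TMM scaling) and 532 with NTHi. The list of 6 epithelial genes that holds Epcam did not follow it. It summed to 7822 to 8472 CPM in fresh cells and 7324 to 8072 with NTHi. Against the controls, 3 of the 6 rose and 2 fell with NTHi, beside 20.1% and 20.4% of all genes tested. The leukocyte gene Ptprc averaged 166 CPM in fresh cells and 33.6 with NTHi. Epithelial cells are not known to rearrange immunoglobulin genes, and the labels name no B cell.

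As background, an antibody pairs a heavy with a kappa or lambda light chain. Each B cell joins 1 variable segment per chain to a constant region. The heavy constant region sets the class: Ighm and Ighd encode the chains of IgM and IgD, which naive B cells carry on their surface, the Ighg genes those of IgG, and Igha that of IgA, which plasma cells beneath an epithelium secrete. Many clones of B cells can use the same segment. The spread of counts over variable segments therefore describes how mixed the segment use is and does not count clones. Mouse B-1a cells, a B cell class abundant in body cavities, are known for receptors that recur between animals. Ighv11-2 with Igkv14-126, and Ighv12-3 with Igkv4-91, are the known pairs of those that bind phosphatidylcholine.

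The 4 segments of those pairs are shown because the results on variable segments turn on them. All 170 genes matched a symbol in the GENCODE M21 annotation of GRCm38 and all had the biotype that their names imply; the files use another build, so no coordinates are given. Below are the first 300 coding bases of each segment from that annotation, 5′ to 3′, beginning with the leader. Capitals mark bases that differ from the nearest relative among the annotated segments: Ighv11-1 for Ighv11-2, Igkv14-111 for Igkv14-126, Ighv3-1 for Ighv12-3 and Igkv4-79 for Igkv4-91.
Ighv11-2: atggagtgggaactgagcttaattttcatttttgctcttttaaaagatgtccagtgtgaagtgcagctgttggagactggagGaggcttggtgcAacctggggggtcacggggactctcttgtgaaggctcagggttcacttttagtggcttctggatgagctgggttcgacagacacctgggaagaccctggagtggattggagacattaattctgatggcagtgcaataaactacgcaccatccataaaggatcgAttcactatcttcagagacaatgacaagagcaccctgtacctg
Igkv14-126: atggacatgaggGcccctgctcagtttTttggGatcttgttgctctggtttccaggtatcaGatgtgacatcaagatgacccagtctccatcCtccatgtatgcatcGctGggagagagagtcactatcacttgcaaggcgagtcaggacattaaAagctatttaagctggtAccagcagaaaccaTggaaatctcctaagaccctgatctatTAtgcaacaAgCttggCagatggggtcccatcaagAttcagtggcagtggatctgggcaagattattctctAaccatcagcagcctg
Ighv12-3: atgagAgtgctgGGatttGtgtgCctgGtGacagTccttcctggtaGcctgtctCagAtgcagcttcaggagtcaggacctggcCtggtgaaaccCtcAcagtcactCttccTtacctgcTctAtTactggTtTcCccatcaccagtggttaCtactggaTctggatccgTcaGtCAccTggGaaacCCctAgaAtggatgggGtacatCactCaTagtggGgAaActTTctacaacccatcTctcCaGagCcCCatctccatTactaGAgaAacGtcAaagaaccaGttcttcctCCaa
Igkv4-91: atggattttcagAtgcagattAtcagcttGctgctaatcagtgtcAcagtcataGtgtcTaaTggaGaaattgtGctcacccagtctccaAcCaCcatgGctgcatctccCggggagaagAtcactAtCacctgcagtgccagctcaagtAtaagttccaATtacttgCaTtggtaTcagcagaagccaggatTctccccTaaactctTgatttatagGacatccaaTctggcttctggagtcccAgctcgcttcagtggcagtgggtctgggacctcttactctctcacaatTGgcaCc
Ighv11-2 differed from Ighv11-1 at 4 places of its 353 coding bases, 3 of them among those shown, so a short read can fit both; Ighv11-1 itself held 61 counts over all libraries against 12802 for Ighv11-2. Igkv14-126 differed from its relative at 30 places, Ighv12-3 at 79 and Igkv4-91 at 45. Over the 156 variable segments the median identity to the nearest relative was 94.15%, and 7 had a relative at 98% or more. How reads that fit several segments were counted is not given in the sources used here, so values of single segments are uncertain to that extent.

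Summed over the 170 genes, immunoglobulin RNA was most abundant in fresh cells, at 2460, 1522 and 1955 CPM in experiments A, B and C. On the day of airlift the 6 libraries ran from 677 to 935 CPM with a median of 747. The 7 controls ran from 408 to 979 with a median of 701, and the 7 NTHi libraries from 153 to 875 with a median of 355. Every fresh library lay above every cultured one, while the 3 cultured groups overlapped. These sums made up 0.117% to 0.188% of all counts in fresh cells and 0.0157% to 0.101% in culture. In bulk RNA, fewer cells of a type and less RNA per cell cannot be told apart.

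Between fresh cells and the day of airlift, 124 of the 169 immunoglobulin genes tested fell and 2 rose, by edgeR's quasi-likelihood test at an adjusted p below 0.05. Over all 18302 genes of that test 36.7% fell and 37.9% rose. The median log2 fold change of the 169 was -1.50, against 0.0026 over all genes. The 2 that rose were Ighv11-2 and Igkv14-126. From airlift to the day 4 controls the shifts were smaller: 36 of 169 fell and 1, Ighv11-2, rose, with 27.7% of all genes falling and 26.9% rising, and a median of -0.51 against -0.021 over all genes, so the share that fell was below that of all genes. From fresh cells to the controls 149 of 169 fell and the same 2 segments rose, beside 37.7% and 38.8% of all genes, with a median of -2.004. Groups did not overlap for 74 genes that were lower and 2 that were higher at airlift than in fresh cells, of 170. The same count was not made over all genes, so it cannot be read as particular to immunoglobulin genes. These 3 comparisons share libraries. A gene could reach the minimum, or enter the test, mostly through its fresh counts, which can favour falls from fresh cells. Igkv4-74 held 51, 17 and 23 of its 170 counts in the fresh libraries and would not have reached the minimum without them. Scaled by library totals alone, the median of all genes moved to 0.49 between fresh cells and airlift. Higher genes then made up 70.6% of those called instead of 50.8%. Of all genes, 4223 were called lower and 10131 higher, beside 85 and 2 of the immunoglobulin genes.

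NTHi treatment was compared with the controls on 104 of the 170 genes. The other 66, 63 of them variable segments, were too low for the test, with at most 0.681 CPM on average in the controls. A gene could enter the test mostly through its counts in the controls, which can favour falls. Of the 104, 73 fell and 1 rose, beside 20.4% and 20.1% of 16337 genes; the median log2 fold change was -1.19, and that of all genes -0.00013. By type, 8 of 11 constant regions, 29 of 42 heavy, 34 of 48 kappa and 2 of 3 lambda segments fell. Of the 170 genes, the 66 untested ones included, 5 had NTHi and control groups that did not overlap, all lower with NTHi. This count, too, was not made over all genes and cannot be read as particular to immunoglobulin genes. Without the experiment as a term in the fit, 42 fell. The share of all genes that fell in that fit is not given here, so the drop from 73 cannot be read as particular to immunoglobulin genes.

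**Figure D1:**
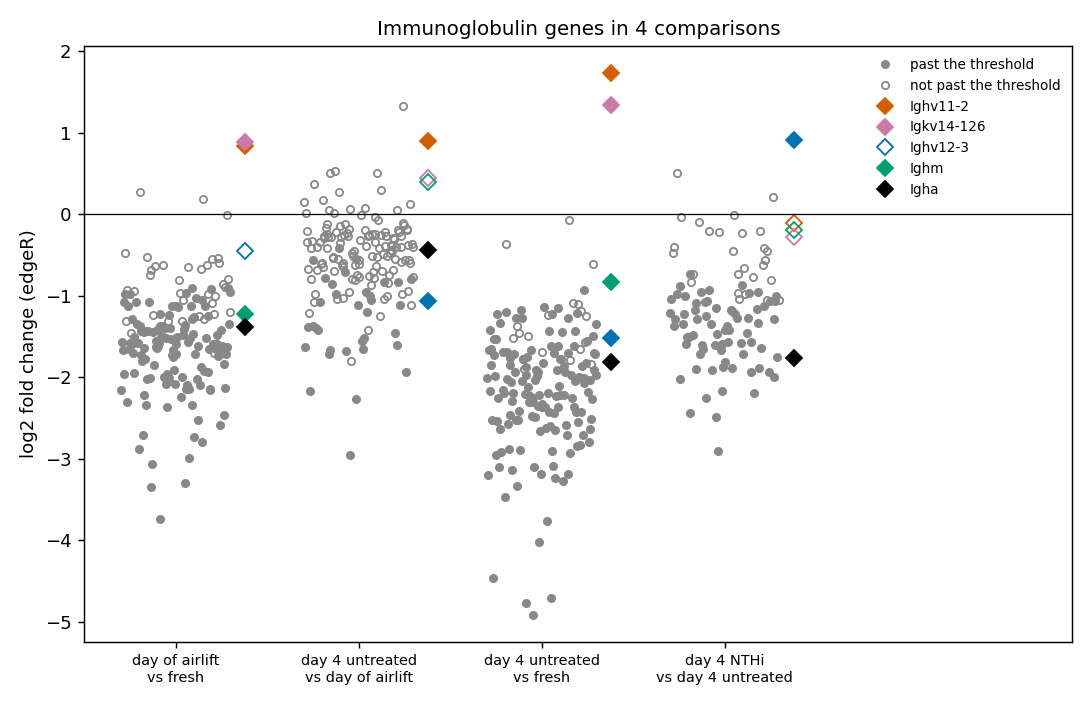
Log2 fold change (vertical axis, edgeR) of each immunoglobulin gene tested in 4 comparisons (horizontal axis); each circle or diamond is 1 gene, filled where the adjusted p was below 0.05, and 5 genes are coloured as in the key. Most genes lie below 0 in every comparison, while Ighv11-2 and Igkv14-126 lie at 1.73 and 1.34 between fresh cells and controls.

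Of the 3 constant regions with the most counts, Igha, Ighm and Igkc, the first fell furthest in the NTHi cultures. Fresh libraries of experiments A, B and C held 788, 536 and 575 CPM of Igha. The airlift libraries ran from 199.98 to 326 CPM with a median of 231, the controls from 94.7 to 290.1 with a median of 166, and the NTHi libraries from 19.99 to 161 with a median of 61.6. All fresh libraries were above all others, and NTHi overlapped the controls only between experiments, since in each experiment every NTHi library was below every control. Igha fell by 1.76 ± 0.21 on the log2 scale with NTHi (SE; edgeR adjusted p = 6.57e-06), and by 1.18, 1.52 and 2.33 in experiments A, B and C taken by their means. From fresh cells to airlift it fell by 1.38 ± 0.19 (adjusted p = 2.64e-06). From airlift to control its log2 fold change was -0.44 ± 0.15 (adjusted p = 0.0236), with 0.26, -0.73 and -0.68 in experiments A, B and C. That call was lost without replicate 1 of experiment B or replicate 2 of experiment C at airlift (adjusted p of 0.0697 and 0.0519). The same held without replicate 2 of experiment B among the controls (0.0621). Leaving out experiment B or C as a whole (0.227 and 0.177), or the experiment term (0.0925), lost it as well.

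Ighm, by contrast, did not pass the test in the treated cultures. It was at 401, 198 and 317 CPM in the fresh libraries, at 105 to 151 with a median of 128 on the day of airlift, at 122 to 230.0 with a median of 153 in the controls and at 64.9 to 319 with a median of 138 with NTHi. The control and NTHi ranges overlapped widely. Ighm fell by 1.23 ± 0.21 from fresh cells to airlift (adjusted p = 3.15e-05). Its log2 fold change with NTHi was -0.19 ± 0.19 (adjusted p = 0.469), at 0.26, 0.11 and -0.69 in experiments A, B and C. From airlift to control it was 0.39 ± 0.17 (adjusted p = 0.0577), with 1.10, -0.075 and 0.32 by experiment, and 10 of 26 other settings called it higher there.

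The ratio of Igha to Ighm counts within a library, which no scaling touches but which is not adjusted for gene length, was 1.97, 2.71 and 1.81 in the fresh libraries. It ran from 1.57 to 2.27 on the day of airlift, from 0.758 to 1.38 in the controls and from 0.212 to 0.504 with NTHi. The ranges at airlift, in the controls and with NTHi did not overlap. As a share of heavy constant counts, Igha averaged 63.4 ± 6.65% in fresh cells (SD, n = 3), 60.95 ± 6.44% at airlift (n = 6), 49.0 ± 6.19% in the controls (n = 7) and 25.2 ± 5.35% with NTHi (n = 7). Ighm averaged 29.8 ± 3.40%, 31.9 ± 2.02%, 47.7 ± 5.37% and 71.9 ± 5.15% in the same order.

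Apart from Igkc, the other constant regions were lower than both Igha and Ighm. Ighd, carried with IgM by naive B cells, stood at 6.53, 6.61 and 4.43 CPM in fresh cells and at 0.643 to 0.849 CPM at airlift, and fell by 2.995 ± 0.21 on the log2 scale (adjusted p = 2.32e-10). Its change with NTHi was -0.73 ± 0.29 (adjusted p = 0.0546), and leaving out replicate 1 of experiment A or B among the NTHi libraries, or replicate 2 of experiment A among the controls, brought it past the threshold (0.0374, 0.00857 and 0.0404). Igkc, the kappa constant region, averaged 318, 123, 101 and 59.1 CPM in fresh, airlift, control and NTHi libraries and fell by 0.95 ± 0.23 with NTHi (adjusted p = 0.00416), with -0.42, -0.65 and -1.53 in experiments A, B and C. The call was lost with no experiment term (-0.78, adjusted p = 0.122), and 1 NTHi library, replicate 1 of experiment A, stood apart at 155 CPM where the next was at 69.0. The 3 lambda constant regions Iglc1, Iglc2 and Iglc3 fell with NTHi by 1.19, 0.73 and 0.96. All 3 calls were lost with no experiment term (adjusted p of 0.0531, 0.0808 and 0.156), that of Iglc2 also without experiment B (0.0584) and that of Iglc3 without experiment B or C (0.0940 and 0.0505). Lambda kept a similar part of light chain constant counts in each group, between 7.15% and 8.34% on average, with library values from 4.58% to 11.9%.

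Among the IgG genes, Ighg2c differed widely between experiments. It was at 12.5, 2.33 and 50.9 CPM in the fresh libraries of experiments A, B and C. On the day of airlift it was at 24.3 and 26.2 CPM in the 2 libraries of experiment C and between 0.200 and 2.19 in the other 4. The libraries of experiment C were thus the highest both times. With NTHi Ighg2c fell by 2.17 ± 0.43 (adjusted p = 0.000801); it held no count in replicate 1 of experiment B, where 3 counts would be 0.0787 CPM. Ighg1 fell by 1.90 ± 0.53 with NTHi (adjusted p = 0.00973), with -1.02, -0.34 and -3.96 in experiments A, B and C. Without experiment C its change was -0.81 (adjusted p = 0.122), and with no experiment term the call was lost as well (0.0650). Ighg3 fell by 0.88 ± 0.21 (adjusted p = 0.00371), a call lost without experiment A (0.0566). Ighg2b was at 0.946 to 7.42 CPM with NTHi and at 2.23 to 6.58 in the controls, a change of -0.41 ± 0.26 that did not pass (adjusted p = 0.227).

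**Figure D2:**
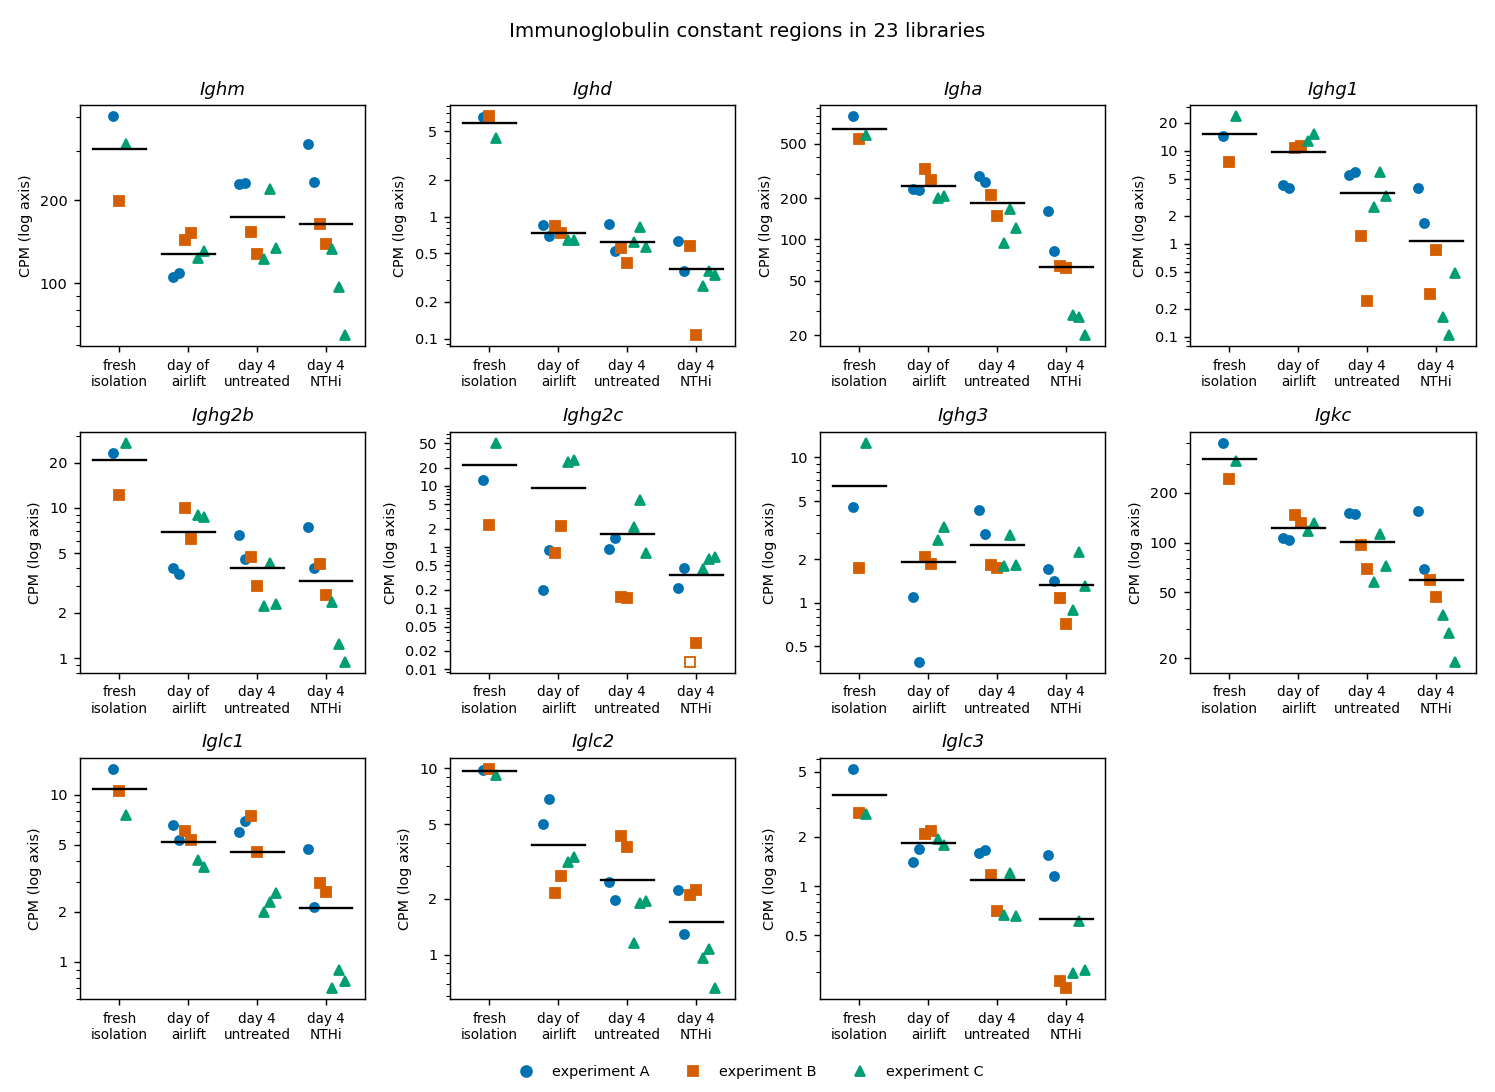
CPM on a log axis of the 11 immunoglobulin constant regions in each of the 23 libraries, by group (horizontal axis) and experiment (colour and shape), with a line at each group's mean; the open square marks the 1 library with no Ighg2c count, drawn at the foot of its panel. Igha lies at 19.99 to 161 CPM with NTHi and at 94.7 to 290.1 in the controls, while Ighm overlaps between those groups.

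From fresh cells to airlift 113 of 156 variable segments fell, beside 36.7% of all genes. From airlift to control 30 of 156 fell, or 19.2%, which was below the 27.7% of all genes. Ighv11-2 rose in both comparisons. Fresh libraries held 5.43, 5.32 and 5.45 CPM of it. It ran from 8.39 to 11.4 CPM with a median of 9.70 at airlift, from 11.6 to 24.7 with a median of 18.5 in the controls and from 6.75 to 29.8 with a median of 18.6 with NTHi. The fresh, airlift and control ranges followed each other without overlap, and the NTHi range contained that of the controls. Ighv11-2 rose by 0.84 ± 0.21 from fresh cells to airlift (adjusted p = 0.00130) and by 0.89 ± 0.15 from airlift to control (adjusted p = 5.35e-05), and both calls held in all other settings run, 25 and 26 in number. From airlift to control the differences were 1.37, 0.68 and 0.74 in experiments A, B and C. With NTHi its log2 fold change was -0.10 ± 0.21 (adjusted p = 0.733): 0.43, 0.12 and -0.63 in experiments A, B and C. Without experiment C it was 0.28 and passed the threshold (adjusted p = 0.0251).

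Igkv14-126, the light chain segment of the same known pair, took a like course. The fresh libraries held 7.66, 9.95 and 8.24 CPM. It ran from 14.6 to 19.1 CPM with a median of 15.6 at airlift, from 10.9 to 32.9 with a median of 21.8 in the controls and from 7.41 to 34.8 with a median of 20.4 with NTHi. Every airlift and control library was above every fresh one. Its rise from fresh cells to airlift was 0.89 ± 0.27 (adjusted p = 0.00647; 0.0529 without the fresh library of experiment A). From airlift to control the change was 0.45 ± 0.20 (adjusted p = 0.0616), which 6 of 26 other settings called, among them those without replicate 2 of experiment B, replicate 1 of experiment C or replicate 3 of experiment C of the controls (0.0251, 0.0301 and 0.0117). With NTHi it was -0.28 ± 0.22 (adjusted p = 0.346).

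Set against the other segments of their loci, both took a growing part. Ighv11-2 made up 1.72%, 2.71% and 2.20% of heavy variable counts in the fresh libraries, 8.47% to 11.002% at airlift, 18.1% to 26.6% in the controls and 32.7% to 41.7% with NTHi. The 4 ranges did not overlap. Igkv14-126 made up 1.74%, 3.64% and 2.35% of kappa variable counts in fresh cells, 11.3% to 14.2% at airlift, 14.8% to 25.1% in the controls and 29.7% to 42.1% with NTHi, again with no overlap. Coding lengths of the variable segments ran from 284 to 394 bases, and these are shares of counts that are not adjusted for length. The NTHi library with the fewest heavy variable counts, replicate 3 of experiment C, had 264 of 792 on Ighv11-2. That is 33.3%, with a 95% Wilson interval of 30.1% to 36.7%. The interval covers counting error only and takes counts as independent. Independent fragments may be fewer than counts, so it may be too narrow.

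The other segments of each locus were summed apart. Heavy variable counts other than Ighv11-2 summed to 248 ± 59.6 CPM in fresh cells (SD, n = 3), 90.5 ± 13.5 at airlift (n = 6), 66.9 ± 19.3 in the controls (n = 7) and 30.2 ± 15.7 with NTHi (n = 7). Kappa counts other than Igkv14-126 summed to 346 ± 84.1, 116 ± 19.8, 83.1 ± 27.3 and 35.9 ± 22.9 CPM. Controls and NTHi overlapped in these sums too: the heavy sum ran from 40.01 to 93.9 CPM in the controls and from 13.5 to 58.7 with NTHi, and the kappa sum from 47.6 to 122 and from 13.6 to 82.5. Igkv14-126 was the leading kappa segment in all 20 cultured libraries and Ighv11-2 the leading heavy segment in all 14 of day 4, whereas other segments led in each fresh library. The ratio of Ighv11-2 to Igkv14-126 counts ran from 0.522 to 0.715 at airlift, from 0.593 to 1.06 in the controls and from 0.822 to 1.17 with NTHi, so the airlift and NTHi ranges did not overlap.

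**Figure D3:**
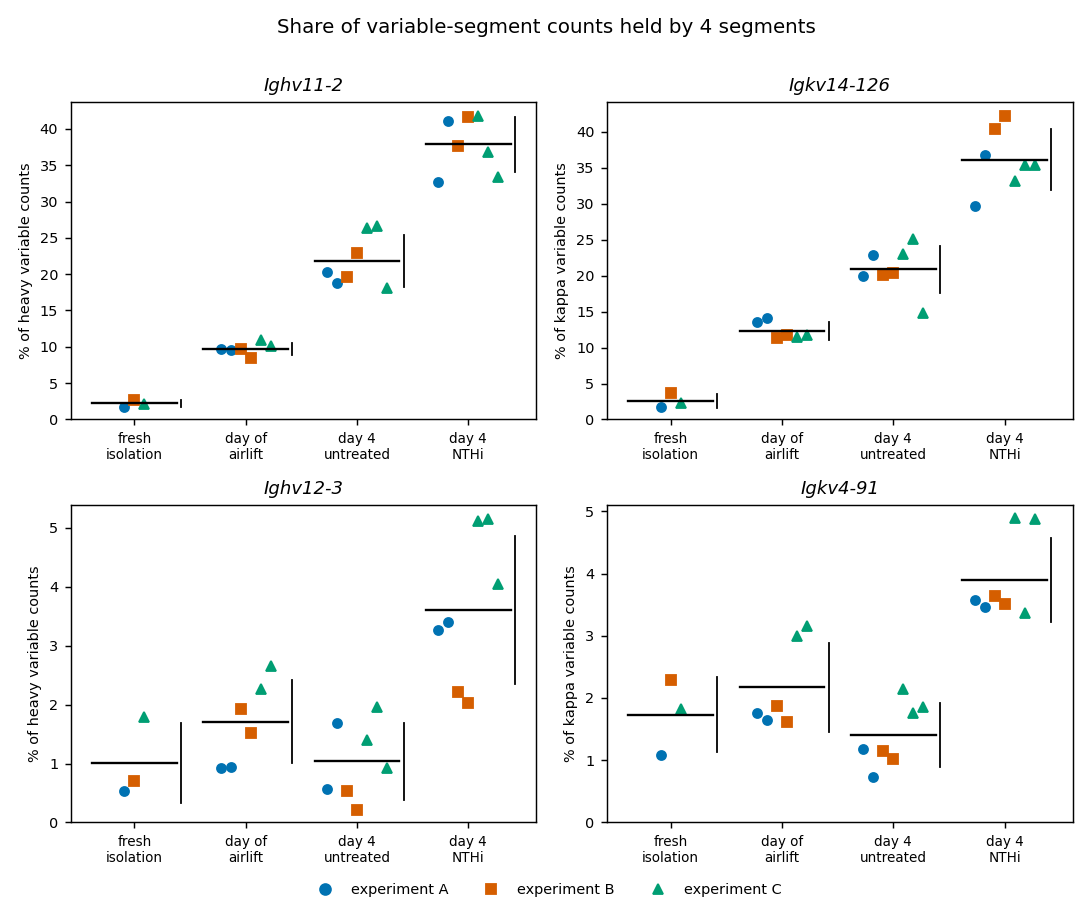
Percent of the heavy (left) or kappa (right) variable counts held by 4 segments in each library, by group and experiment; lines are group means and the bars beside them ± 1 SD. Ighv11-2 climbs from 1.72% to 2.71% in fresh cells to 32.7% to 41.7% with NTHi, and Igkv14-126 from 1.74% to 3.64% to 29.7% to 42.1%.

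The second known pair was scarcer and did not rise in culture before NTHi. Ighv12-3 stood at 1.70, 1.39 and 4.43 CPM in fresh cells, at 0.799 to 2.45 with a median of 2.01 at airlift, at 0.147 to 1.82 with a median of 0.668 in the controls and at 0.818 to 2.86 with a median of 1.54 with NTHi. The control and NTHi ranges overlapped. It fell by 1.07 ± 0.41 from airlift to control (adjusted p = 0.0343), with 0.56, -2.66 and -1.15 in experiments A, B and C, a call kept in 14 of 26 other settings. It was the 1 immunoglobulin gene that rose with NTHi, by 0.91 ± 0.33 (adjusted p = 0.0384), with differences of 1.14, 1.63 and 0.40 in experiments A, B and C. The call held in 10 of 24 other settings, and of the 14 that left out 1 library it held only without replicate 2 of experiment A or C of the controls or replicate 3 of experiment C with NTHi; over the 24 the adjusted p ran from 0.00351 to 0.179.

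Igkv4-91, its light chain partner, fell from 4.79, 6.26 and 6.37 CPM in fresh cells to 1.86 to 3.96 at airlift and 0.782 to 2.14 in the controls, by 1.08 ± 0.22 and 1.07 ± 0.19 on the log2 scale (adjusted p = 0.000204 and 9.27e-05). With NTHi it was at 1.02 to 4.19 CPM, a change of 0.51 ± 0.27 (adjusted p = 0.149) with 1.24, 0.88 and -0.26 in experiments A, B and C. It passed without replicate 2 of experiment C of the controls (0.0449), and without experiment C, where it was 1.08 (adjusted p = 0.00296). As shares, Ighv12-3 averaged 1.04 ± 0.653% of heavy variable counts in the controls and 3.60 ± 1.25% with NTHi, and Igkv4-91 1.41 ± 0.517% and 3.90 ± 0.675% of kappa variable counts (SD, n = 7 each). Neither share overlapped between the 2 groups.

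Fresh cells spread their counts over many segments. The effective number of segments, the inverse of the summed squared shares, is the number of equally used segments that would give the same concentration. For heavy segments it averaged 36.9 ± 3.16 in fresh cells (SD, n = 3), 27.8 ± 5.08 at airlift (n = 6), 14.4 ± 2.78 in the controls (n = 7) and 6.51 ± 1.26 with NTHi (n = 7); for kappa it was 34.6 ± 2.69, 26.1 ± 2.43, 15.7 ± 2.87 and 7.16 ± 1.47. With Igkv14-126 left out, the kappa number was 33.7 ± 2.67, 33.2 ± 1.95, 30.6 ± 1.88 and 32.4 ± 2.11. With Ighv11-2 left out, the heavy number was 35.9 ± 3.19, 31.7 ± 8.39, 28.8 ± 7.25 and 28.8 ± 6.14, and it was lowest in the controls of experiment B, down to 18.2. These numbers describe the libraries and were not tested.

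**Figure D4:**
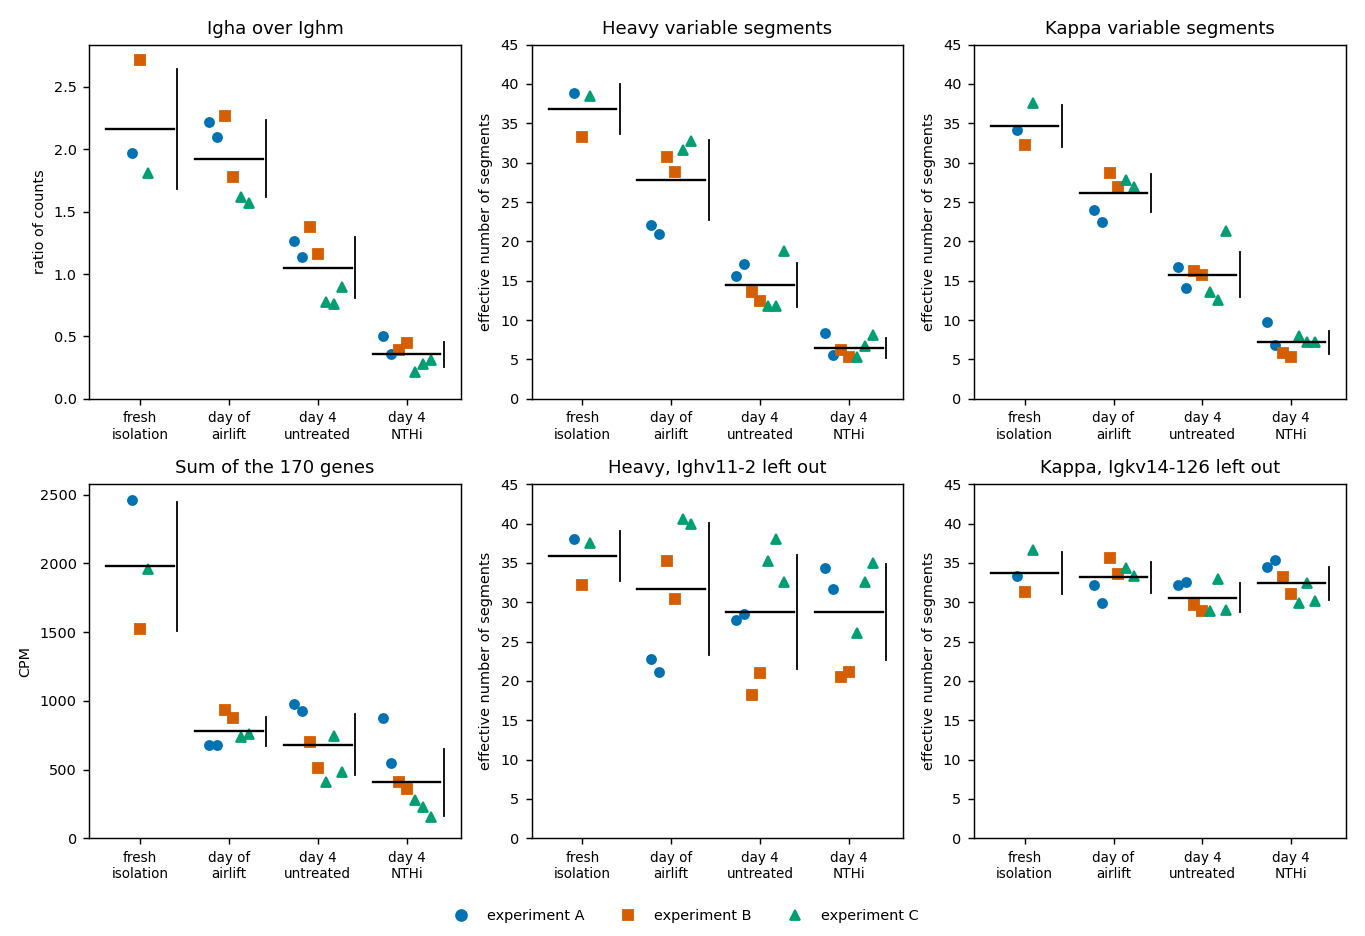
Ratio of Igha to Ighm counts, CPM summed over the 170 genes, and effective number of heavy and kappa variable segments with (top) and without (bottom) Ighv11-2 or Igkv14-126, for each library by group and experiment; lines are means and bars ± 1 SD. The effective number of kappa segments falls from 34.6 in fresh cells to 7.16 with NTHi, but lies between 30.6 and 33.7 on average once Igkv14-126 is left out.

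The segments that led in fresh cells fell. They were picked for their high fresh levels, which favours falls from fresh cells. Igkv6-23 averaged 23.4, 7.72, 5.60 and 1.36 CPM in fresh, airlift, control and NTHi libraries, and every NTHi library, at 0.307 to 3.02 CPM, was below every control, at 3.76 to 8.12. It fell by 2.19 ± 0.23 with NTHi (adjusted p = 2.11e-06). Igkv1-110 fell by 1.94 and Igkv8-27 by 1.59 with NTHi, and Iglv1, the leading lambda segment, by 1.15. Of the heavy segments with most counts after Ighv11-2, Ighv1-26 fell by 1.33, Ighv1-55 by 1.41 and Ighv3-6 by 1.29. With no experiment term the calls of Iglv1, Ighv1-26 and Ighv3-6 were lost (adjusted p of 0.0904, 0.137 and 0.109). Among the variable segments, the 4 with the largest falls with NTHi were Igkv4-90, Ighv1-34, Ighv1-22 and Ighv1-15. They fell by 2.91, 2.49, 2.44 and 2.26, and Ighv1-15 has a relative at 98% identity. Such segments could pass the filter on low counts mostly through the controls, which favours large falls. Igkv4-90 held 134, 96 and 54 counts in the controls of experiment C. In the other controls it held 10 to 14, and with NTHi 0 to 14. Ighv1-22 held 11 to 82 counts in the controls and 0 to 22 with NTHi. The smallest falls among the variable segments called lower belonged to Ighv1-80, Ighv5-17, Ighv1-69 and Iglv3, which fell by 0.98, 0.96, 0.93 and 0.87. Leaving out 1 library ended 3 of these calls: that of Iglv3 was lost without control replicate 1 of experiment B (adjusted p = 0.0775), that of Ighv5-17 without control replicate 2 of experiment C or NTHi replicate 2 of experiment B (0.0550 and 0.0578), and that of Ighv1-80 without any of 9 single libraries, 5 control and 4 NTHi (0.0522 to 0.101), whereas that of Ighv1-69 held without any 1 of the 14 but was lost without experiment A (0.0705) and with no experiment term (0.162). The other 3 were each lost without experiment C (0.203 for Iglv3, 0.214 for Ighv5-17 and 0.151 for Ighv1-80). Further settings ended them too. Among these were, for Iglv3, those without experiment A (0.0641) and with no experiment term (0.508). For Ighv5-17 it was that without experiment B (0.176), and for Ighv1-80 those without experiment B (0.360) and with no experiment term (0.377).

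The rest of the usage differed between experiments. Over 348 variable rows, Pearson's r of the shares lay between 0.978 and 0.990 for the 3 pairs of airlift libraries within an experiment, and between 0.778 and 0.877 for the 12 pairs across experiments. Without Ighv11-2 and Igkv14-126 these were 0.972 to 0.985 and 0.667 to 0.820. These correlations are across segments, which share a library's depth, and describe likeness only. The share of Ighv11-2 at airlift lay within 8.47% to 11.002% in all 3 experiments.

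Genes of B cells and of antibody secretion were measured beside these. Of 18 B cell markers, 15 fell from fresh cells to airlift (36.7% of all genes did), 9 rose from airlift to control (26.9% of all genes), and 12 of 17 tested fell and 2, Fcer2a and Cd37, rose with NTHi (20.4% and 20.1% of all genes). Their summed level was 210 to 240 CPM in fresh cells, 81.2 to 89.5 at airlift, 87.4 to 145 in the controls and 64.3 to 147 with NTHi. Cd79a, part of the B cell receptor complex, averaged 25.5, 10.4, 10.7 and 5.97 CPM, and Ms4a1, which encodes CD20, 9.68, 2.30, 3.32 and 0.958. Cd5, a surface marker of B-1a and of T cells, averaged 2.68 CPM in fresh cells and 0.433, 0.334 and 0.348 in the cultured groups. Of the B cell precursor genes, Rag2 held no count and Rag1 none at day 4. Macrophage and monocyte genes fell too with NTHi, 9 of 12, from a summed 6995 to 14733 CPM in the controls to 1383 to 4981, as did 3 of 4 general leukocyte genes, beside the same 20.4% of all genes. Of 5 neutrophil genes tested 3 rose and 1 fell, beside 20.1% and 20.4% of all genes. The 8 of that list summed to 10.3 to 25.4 CPM in the controls and 48.4 to 193 with NTHi. The part of these cell types in the changes of the immunoglobulin genes was not tested.

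Jchain, which links IgA and IgM into polymers, moved with Igha. It was at 146, 97.8 and 113 CPM in fresh cells, at 37.3 to 62.4 at airlift, at 13.4 to 42.2 in the controls and at 3.32 to 22.8 with NTHi, and in each experiment every NTHi library was below every control. It fell by 1.89 ± 0.23 with NTHi (adjusted p = 1.04e-05). Of the 11 genes of the secretion list tested with NTHi, Jchain alone fell and 2 rose, shares below and near the 20.4% and 20.1% of all genes. Mzb1, a chaperone of antibody-secreting cells, was at 3.36 ± 1.10 CPM in the controls and 2.71 ± 1.10 with NTHi (adjusted p = 0.158). Epithelial cells express several of that list, such as Xbp1 and Sdc1, and its part in the result was not tested. Pigr, the epithelial receptor that carries polymeric IgA and IgM across the cell, went the other way, from 79.3 ± 26.0 CPM in the controls to 754 ± 77.2 with NTHi (SD, n = 7 each), a rise of 3.31 ± 0.12 (adjusted p = 1.88e-11).

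Whether the NTHi effect differed between experiments was tested by the interaction. No gene of 16337 passed by edgeR's quasi-likelihood test, so none of the 104 immunoglobulin genes did, with 675 genes and 20 of the 104 at an unadjusted p below 0.05. By experiment, with NTHi, summed immunoglobulin RNA was 875 and 546 CPM in experiment A, 410.2 and 355 in B and 280.1, 225 and 153 in C.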

How the data were processed

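RNA of 23 libraries was sequenced in bulk. The authors deposited raw counts per gene, whole numbers with no normalization, in 3 tables of 41098 lines, 1 per experiment. The build was GRCm39 and the tools included STAR and DESeq2, per the submitters' processing notes. How reads were counted, and whether by strand, is not given in the sources used here, so antisense or overlapping genes cannot be told apart. In each file 25 lines were broken and left out, at most 0.0822% of a library's counts. Of counts below 20, 69.3% to 74.9% were even, so independent fragments may be fewer than counts.

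Counts were tested with edgeR 4.0.16 in R 4.3.3 (quasi-likelihood F-test, TMM, filterByExpr with a minimum count of 10, group and experiment as terms, Benjamini-Hochberg over all genes tested, adjusted p below 0.05). NTHi was compared with control over their 14 libraries, and the other comparisons used the 16 untreated ones. The ± after a log2 fold change is its SE. CPM used TMM-scaled totals of all 23 libraries. Replicate pairs within an experiment, 13 in all, differed by more than sampling noise (chi-square per degree of freedom 2.97 to 86.3). Code was tested on simulated data.

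Named were all constant regions, the 4 variable segments of each locus with most counts, the 3 leading ones of each group, the 5 highest and 5 lowest called with NTHi, genes at the edge of the minimum and marker genes; the known pairs were added for their sequences and shares. Members, lists and tests were chosen with earlier results of these data known. Alternatives were DESeq2 1.42.0 (size factors or test), library totals, no filter, no experiment term, a replicate block, halved counts, other minimums, and leaving out each library or experiment.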

Additional observations from a re-analysis of the deposited data

Results flagged for a closer look

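Of 111 sets of libraries (1 gene, summed level, ratio or share in 1 group) examined for a single library standing apart by Dixon's criterion, 6 had one. Chance gives about 1 in 20. In replicate 1 of experiment A with NTHi, 5 genes were far above the next highest library: Igkc at 155 CPM against 69.0, Jchain at 22.8 against 11.3, Iglv1 at 12.9 against 4.09, Igkv8-27 at 4.05 against 2.04 and Ighg1 at 3.94 against 1.66. Among the controls, Ighg2c was at 5.78 CPM in replicate 2 of experiment C against 2.13 in the next.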

How the results depend on the processing

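With NTHi, 1 gene was called higher and 73 lower. With no experiment term the count was 0 higher and 42 lower, with Ighv12-3 at an adjusted p of 0.119. It was 0 higher without experiment A, 0 without experiment B and 3 without experiment C (Igkv4-91, Ighv11-2 and Ighv12-3), and leaving out single libraries gave 0 to 2 higher and 66 to 80 lower. From fresh cells to airlift, leaving out single libraries gave 1 to 2 higher and 93 to 130 lower. From airlift to control, 1 was higher and 36 lower: 2 were higher with no experiment term, 6 without experiment B, 2 without experiment C, and 6 with no filter, where 73 were lower. Without experiment A 65 were lower and without experiment C 20; single libraries left out gave 1 to 3 higher and 25 to 44 lower. The shares of all genes called in these other fits, and in that with the replicate block below, are not given here. Such shifts therefore cannot be read as particular to immunoglobulin genes. The cause was not tested.

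With the replicate block the airlift to control counts were 3 higher and 21 lower, with 131 immunoglobulin genes tested, and those with NTHi were 1 and 71. The numbers were not taken to pair the samples: same-numbered control and NTHi libraries deviated together with r of -0.76 to 0.38 over 7 pairs. These are not 7 separate values. Both pairs of experiment A gave the same r (0.197), as did both pairs of experiment B (0.379).

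Log2 fold changes that changed sign with NTHi were those of Ighm, Ighv11-2 and Igkv14-126 without experiment C (0.19, 0.28 and 0.0814), and of Ighv11-2 without control replicate 2 of experiment C (0.0776) or NTHi replicate 3 of experiment C (0.04), its range over single libraries left out being -0.20 to 0.0776. Ighv12-3 from fresh cells to airlift was at 0.0302 by library totals, Ighg3 from airlift to control at -0.37 without experiment A and Iglc1 at 0.0790 without experiment C. Of 1980 other values of named genes, 1835 kept direction and side of the threshold, 97 lost the call, 40 gained it and these 8 changed sign.

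By library totals, higher genes made up 34.1% of all called with NTHi against 49.6%. Between fresh cells and control they made up 69.3% against 50.7%. There 131 immunoglobulin genes were lower, beside 4497 of all genes.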
